A study of Mus musculus with 2 samples.

Results

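Dense clusters of MEF2A binding are stretches of the mouse genome in which many separate MEF2A peaks lie close together. They were chosen by position in the authors' optimal set of reproducible peaks on mm10: the 31497 peaks were merged where they overlapped into 28754 regions, regions at most 12500 bp apart were chained, and chains of 6 or more regions were kept. This gave 555 clusters among 15942 chains, or 3.48% of them, with 4685 of the merged regions (16.3%) and 5181 of the peaks. The number of regions, the span and the closeness of the peaks are therefore fixed by the choice, and summed signal partly follows from it. They are given as descriptions.

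MEF2A was profiled by chromatin immunoprecipitation and sequencing (ChIP-seq) in CH12.LX, an established mouse B-cell lymphoma line from a female of strain B10.H-2aH-4bp/Wts. The data are 1 group of 2 biological replicates, with no treatment, genotype or time compared, so no test between conditions was possible. Both replicates come from the same line, in separate biosamples, and their spread covers differences between cultures of that line only. The read depth is unknown, because the peak lists carry no read counts.

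MEF2A belongs to the MADS-box transcription factors and binds an A/T-rich element as a dimer with other MEF2 proteins. MEF2 proteins are held inactive by class IIa histone deacetylases and are released by calcium and kinase signalling. They are best known from muscle and neurons, and in B cells they act downstream of the B cell receptor. Dense groups of transcription factor peaks are often described as enhancer clusters, and such clusters are known to lie near genes that define a cell type. Neither histone marks nor transcripts were measured here, so whether these clusters act as enhancers was not tested.

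Sequence was read from the mm9 genome, on which the authors deposited a separate list of 16839 peaks. The same chaining gave 175 clusters there. The following windows, on the plus strand, run 50 bp to either side of the summit of the strongest peak of mm9 clusters in which that peak holds the MEF2 consensus, taking the clusters with the highest summed signal. They are shown because they carry the factor's own element at the strongest position of a cluster, and capitals mark that element on either strand.
Cluster near Med13, chr11:86242584-86242684: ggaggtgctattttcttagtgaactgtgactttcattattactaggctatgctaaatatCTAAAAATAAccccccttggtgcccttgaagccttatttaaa
Zbtb38, chr9:96640926-96641026: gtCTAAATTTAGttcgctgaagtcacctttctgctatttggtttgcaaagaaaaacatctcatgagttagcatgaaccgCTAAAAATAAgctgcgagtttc
Phf15, chr11:51658322-51658422: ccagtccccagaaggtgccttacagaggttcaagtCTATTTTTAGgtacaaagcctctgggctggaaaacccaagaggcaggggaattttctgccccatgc
Dgkg, chr16:22633193-22633293: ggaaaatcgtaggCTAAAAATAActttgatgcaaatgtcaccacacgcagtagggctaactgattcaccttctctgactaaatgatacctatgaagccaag
Near Cxcr4, chr1:130410982-130411082: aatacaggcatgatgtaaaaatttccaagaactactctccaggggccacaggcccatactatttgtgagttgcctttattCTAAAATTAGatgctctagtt
Near Bhlhe40, chr6:108656249-108656349: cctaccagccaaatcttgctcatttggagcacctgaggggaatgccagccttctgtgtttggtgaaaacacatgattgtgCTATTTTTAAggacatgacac
The Zbtb38 window holds 2 elements and the others 1 each. The window from the cluster near Med13 lay 55525 bp from its own nearest TSS, that of Rnft1, and the Zbtb38 window 8882 bp from the Zbtb38 TSS. The Cxcr4 window lay 77835 bp from the Cxcr4 transcription start site (TSS), and the Bhlhe40 window 45431 bp from the Bhlhe40 TSS. The Phf15 and Dgkg windows lay inside those genes' clusters, 12526 and 24003 bp from their TSSs.

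Clusters spanned from 5422 to 102142 bp, with a median of 27195 bp, and together 16.5 Mb. They held 6 to 26 merged regions, with a median of 7. Gaps between neighbouring regions had a median of 2290 bp inside clusters and 3002 bp inside smaller chains. The signal value is the one the authors' peak caller gave each peak, on a scale set by each list. Summed over a cluster it ranged from 166 to 2076, with a median of 462, and the clusters held 19.3% of all summed signal. Single regions in clusters had a median signal of 43.2, against 39.3 in chains of 2 to 5 regions and 35.9 in lone regions.

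The signal within a cluster was uneven. The strongest region gave a median of 27.7% of its cluster's sum, and in 30 clusters it gave over 50%. Of the 1000 strongest optimal peaks, 277 lay in clusters, and of the 20 strongest, 7 did, against 16.4% of all optimal peaks. Just outside the choice, the 3 chains of 5 regions with the highest sums reached 819 (on chromosome 10, nearest TSS Btg1), 749 (Pebp4, near Egr3) and 737 (Rab37). Chains of exactly 6 regions had a median sum of 323 and those of 5 a median of 264.

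Each replicate's own relaxed list holds strong peaks and background together. Only its intervals that overlapped a merged region of the optimal set were summed, so the gaps inside clusters were not read. Replicate 1 sums ran from 67.6 to 825 (median 185) and replicate 2 sums from 102 to 1329 (median 301). The 2 lists have scales of their own, so the order of the clusters was compared and not the level. Over the 555 clusters the 2 orders had a Spearman correlation of 0.93, as a description of sums over the same already selected regions. Replicate 1 had an interval over 98.4% of the clusters' regions and replicate 2 over 99.8%, close to their shares over all merged regions (98.0% and 99.8%). In all, 538 and 553 clusters still had 6 or more such regions. Since the optimal set was itself selected for agreement of the replicates, this is no independent check.

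**Figure D1:**
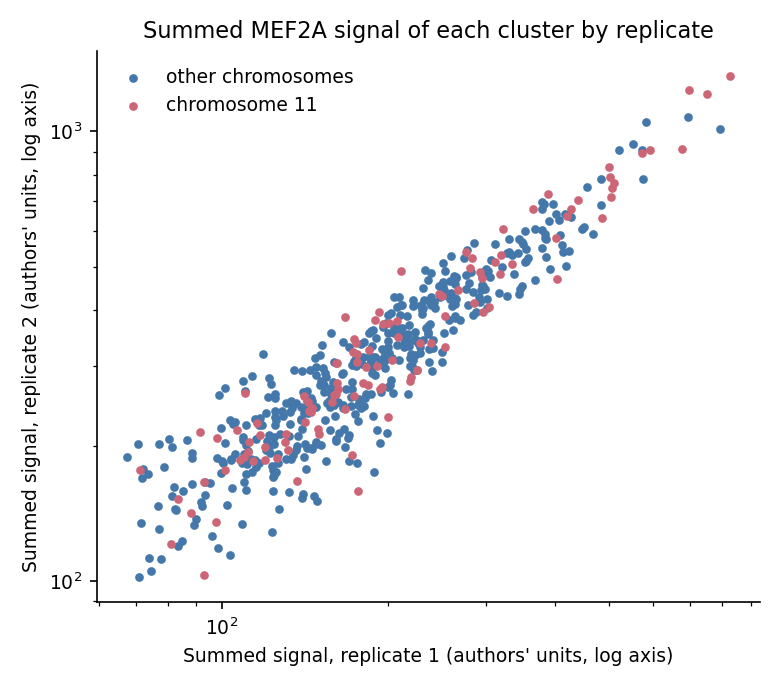
Summed signal of each of the 555 clusters in the relaxed list of replicate 1 (x axis, authors' units, log scale) and of replicate 2 (y axis, authors' units, log scale), with clusters on chromosome 11 in red. The points follow 1 band from 67.6 to 825 in replicate 1, and red points occur along the whole band.

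The highest sum, 2076, belonged to a cluster of 23 regions over the genes Il4, Il13, Rad50 and Kif3a (chr11:53584816-53671781). Il4 and Il13 encode the cytokines of type 2 immunity, and Rad50 encodes a DNA repair protein whose gene is known to carry control elements of the cytokine genes. The sum was 825 in replicate 1 and 1329 in replicate 2, the first rank in both. Its strongest region, of signal 321, lay 22314 bp from the Il13 TSS.

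The next cluster held 23 regions over Rnf157, Qrich2 and Ubald2, with a sum of 1934 (751 in replicate 1 and 1208 in replicate 2). The Ccr7 cluster had 16 regions and a sum of 1895 (697 and 1234 in the replicates). Ccr7 encodes the receptor that guides lymphocytes to the T cell zone of lymph nodes. The strongest region there, of signal 377, stood at the far end of the cluster, 34229 bp from the Ccr7 TSS.

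The cluster with rank 4 by sum overlapped no protein-coding gene (chr16:84583369-84646593). It had 15 regions with a sum of 1753, at 693 in replicate 1 and 1075 in replicate 2. Its nearest protein-coding TSS, that of Mrpl39, was 88651 bp away. St6gal1, which encodes the enzyme that adds sialic acid to the glycans read by CD22, followed with 19 regions and a sum of 1674 (792 and 1010 in the replicates).

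Cd86 and Ildr1 shared the cluster with the most regions, 26, and the longest span, 102142 bp. CD86 is a ligand of CD28 and CTLA-4 through which B cells costimulate T cells. Its sum of 1585 was split over many regions, the strongest giving 13.7% of it, and the replicates read 583 and 1048. Of the 10 clusters with the highest sums, 9 were among the first 10 of replicate 1 and 8 among those of replicate 2.

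**Figure D2:**
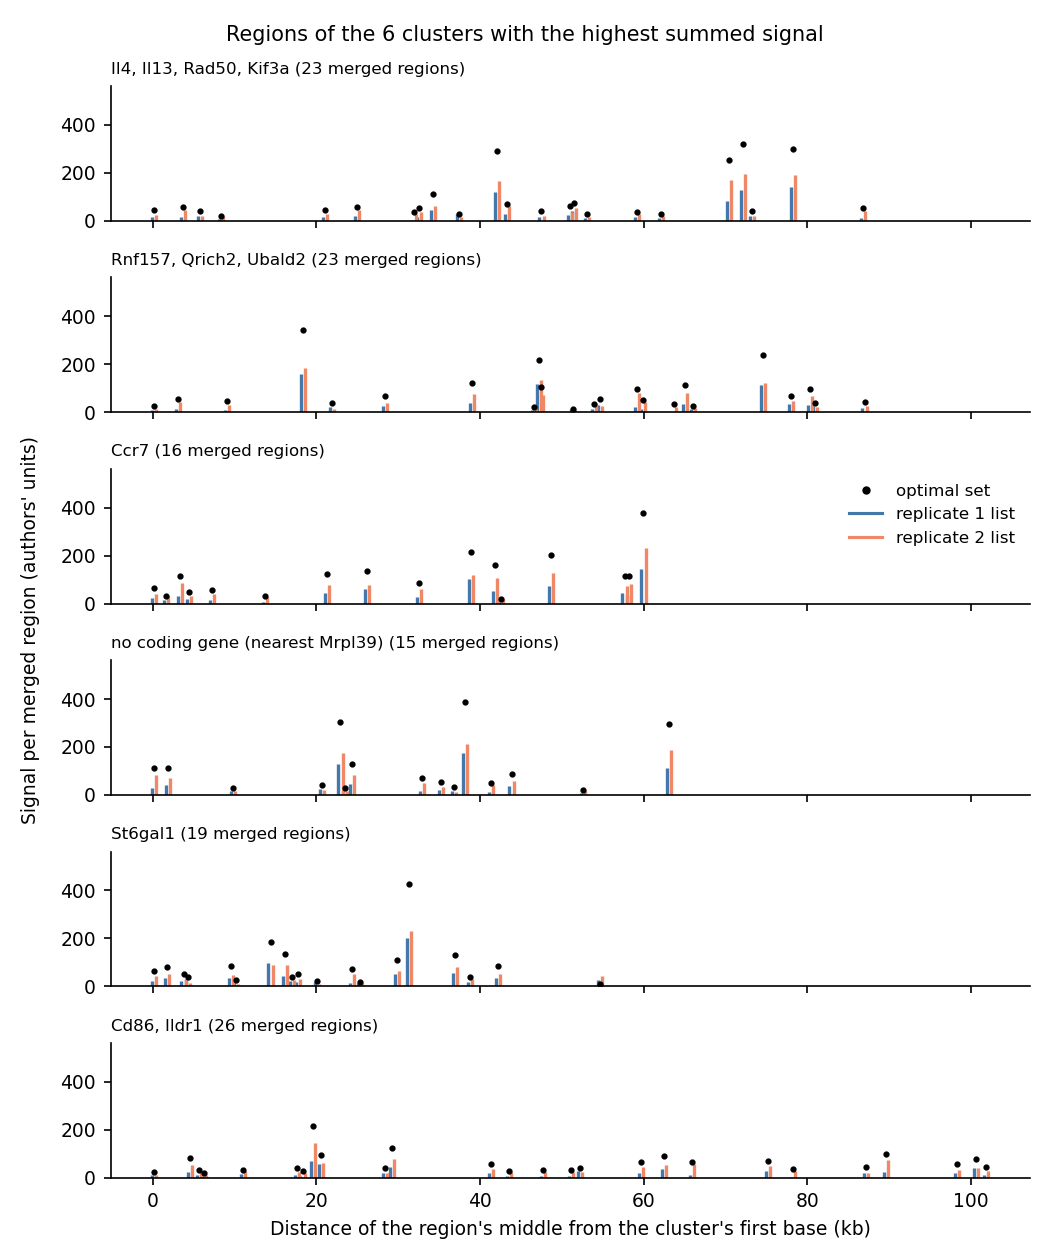
Signal of each merged region (y axis, authors' units) against its distance from the start of its cluster (x axis, kb) in the 6 clusters with the highest sums, with black points for the optimal set and bars for each replicate's list. In the Il4 and Il13 cluster the strongest regions stand 42 to 78 kb from the start, and in the Cd86 cluster no region passes 217.

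The remaining clusters of the first 10 included Tnfrsf13b with Usp22 (17 regions, sum 1543; replicates 678 and 911). Tnfrsf13b encodes TACI, a receptor for the B cell survival factors BAFF and APRIL. Grap, which encodes an adaptor of antigen receptor signalling, lay with Slc5a10 and Fam83g in a cluster of 21 regions and sum 1498 (593 and 909). A cluster of 24 regions over 98197 bp overlapped the long noncoding RNA Morrbid, known to restrain the pro-apoptotic gene Bcl2l11, and no protein-coding gene. Its sum was 1456 (574 and 911). The tenth, of 17 regions, lay 14526 bp from Ly6m, with a sum of 1440 (575 and 785).

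Il10, the gene of an anti-inflammatory cytokine, came next with 20 regions and a sum of 1432 (551 and 935). Other clusters with many regions lay over Prkca (19 regions, sum 1229), Jade2 (19 regions, sum 1229), Ppp1r16b (18 regions, sum 1012) and Trim7, Irgm1 and Trim41 (18 regions, sum 809). In the last the mean region signal was 44.9, against 90.3 in the Il4 and Il13 cluster. Among the 5 longest was a cluster of 82162 bp over Dnajc7, Ttc25, Cnp and Nkiras2, with 15 regions and a sum of 1070 (388 and 724). Dnajc7 encodes a co-chaperone, and Nkiras2 a small GTPase-like inhibitor of NF-kB. Over all clusters the Spearman correlation of region number with sum was 0.67, and both rest on the same regions.

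The highest mean signals per region came from small clusters. A cluster of 6 regions near Wee1, the kinase that holds cells before mitosis, averaged 141 over 8956 bp (sum 848; replicates 334 and 531). The Hdac5 cluster averaged 141 over 7 regions (sum 984; 401 and 579), and Hdac5 encodes a class IIa deacetylase that represses MEF2 proteins. A cluster of 6 regions inside Zbtb20 averaged 139 (sum 832; 367 and 467) and held the strongest region of all, at 535. At the low end stood clusters over Ift27 (sum 166), Pik3r5 (172), Srebf1 and Rai1 (175), Fndc3a (178) and Kazn (181), each of 6 regions.

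Several genes held more than 1 cluster along their length. Ebf1, which encodes a factor that commits cells to the B lineage, held 3 with 28 regions in all, and Hivep3 held 3 with 29. Prkca, a protein kinase C gene, held 2 with 29 regions. The noncoding gene Pvt1 held 2 with 24 regions, whose sums were 1117 and 1043, at 250740 and 150572 bp from the Myc TSS. Myc itself lay in a separate cluster of 7 regions with a sum of 299 (125 and 239 in the replicates).

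A smaller share of cluster peaks than of all optimal peaks lay at promoters. Within 1 kb of a protein-coding TSS lay 13.9% of cluster peaks (Wilson 95% interval 13 to 14.9), 24.2% of all optimal peaks and 30.2% of peaks in chains of 1 region. Inside a gene but farther from a TSS lay 47.4% of cluster peaks and 40.2% of all, and outside genes 38.7% and 35.6%. The clusters were chosen by position, so these shares are descriptions with no test. Of the cluster peaks, 79.8% overlapped the conservative peak set, against 76.6% of all optimal peaks. The intervals cover counting over peaks only, and neighbouring peaks are not independent.

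By cluster, 237 of 555 (42.7%) had no peak within 1 kb of a TSS, and 215 (38.7%) had no TSS inside. In 121 clusters the span overlapped a gene's body, in whole or in part, with no TSS inside, as at Prkca and Zbtb20. No protein-coding gene was overlapped by 94 clusters. Among these was a cluster of 9 regions 17993 bp from the TSS of Mef2a, the gene of the profiled factor (sum 878; replicates 349 and 567). Others lay near Csf2, Id3 and Cdkn2b. At the other extreme, 40 clusters had the TSSs of 3 or more genes inside.

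Of 21896 protein-coding genes, 707 overlapped a cluster, a background of 3.23%, and 2.43% had their TSS inside one. Genes that overlapped a cluster were longer, with a median of 22917 bp against 17149 bp for all genes. The shares of the lymphoid gene lists stood above that background, as counts with no test. So did those of the immediate early, MEF2 and class IIa deacetylase, and haematopoietic transcription factor lists, and of the myeloid list with 1 of 15. Of 24 B cell identity genes, 11 overlapped a cluster, among them Ikzf1 (17 regions, sum 1192; replicates 505 and 713), Ikzf3 (17 regions, sum 1102; 485 and 641), Pou2f2, Cd83, Ebf1, Irf4, Cd79a and Cd79b. Ikzf1 and Ikzf3 encode Ikaros zinc finger factors, and Cd79a and Cd79b encode the signalling chains of the B cell receptor.

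By TSS inside a cluster the order of the lists differed from that by overlap. The highest shares were 10 of 22 NF-kB, 10 of 24 B cell identity and 3 of 8 MEF2 and class IIa deacetylase genes. B cell receptor signalling (7 of 21) and germinal centre and plasma cell genes (6 of 18) followed with equal shares, against 2.43% of all genes. B cell receptor signalling genes overlapped clusters in 11 of 21 cases. They included Ptpn6, the gene of the inhibitory phosphatase SHP-1 (12 regions, sum 835; 342 and 535), the kinase genes Blk and Syk, and the adaptor genes Pik3ap1 and Dapp1. Sums in this list ran down to 250 at Vav2. Of 22 NF-kB genes 10 overlapped a cluster, with Il10 and Rel (sum 729) the highest, and Tnf, Lta and Ltb in 1 shared cluster of 11 regions (sum 545; 224 and 359).

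Of 18 germinal centre and plasma cell genes, 7 overlapped a cluster. Among them were Prdm1, the gene of the plasma cell factor Blimp-1 (12 regions, sum 599; 254 and 431), and Cxcr4, the gene of a chemokine receptor (9 regions, sum 715; 293 and 443). Of 15 matched MHC class II presentation genes there were 5, led by Cd86 (sum 1585). Ciita, the master regulator of the class, had a sum of 620 in a cluster without its TSS. Cd80 had a sum of 531, and H2-DMa and H2-DMb2 shared 1 cluster (sum 309). Of 29 immediate early genes there were 9, with Fosb (sum 805) and Junb (sum 611) the highest.

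The MEF2 and class IIa deacetylase list had 3 of 8, which were Hdac5, Mef2b (sum 559; 217 and 355) and Mef2d (sum 497; 209 and 310). Other lists were lower: 5 of 22 haematopoietic transcription factors, 3 of 20 T cell genes (Ctla4, Il2ra and Cd5) and 1 of 15 myeloid genes (Csf1r). Of 20 striated muscle, 15 neuronal and 15 hepatocyte genes, 0 overlapped a cluster. In lists this short, 0 cannot be told apart from the background of 3.23%. The lists were compiled by hand and hold genes of different lengths, and nothing was tested on them.

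**Figure D3:**
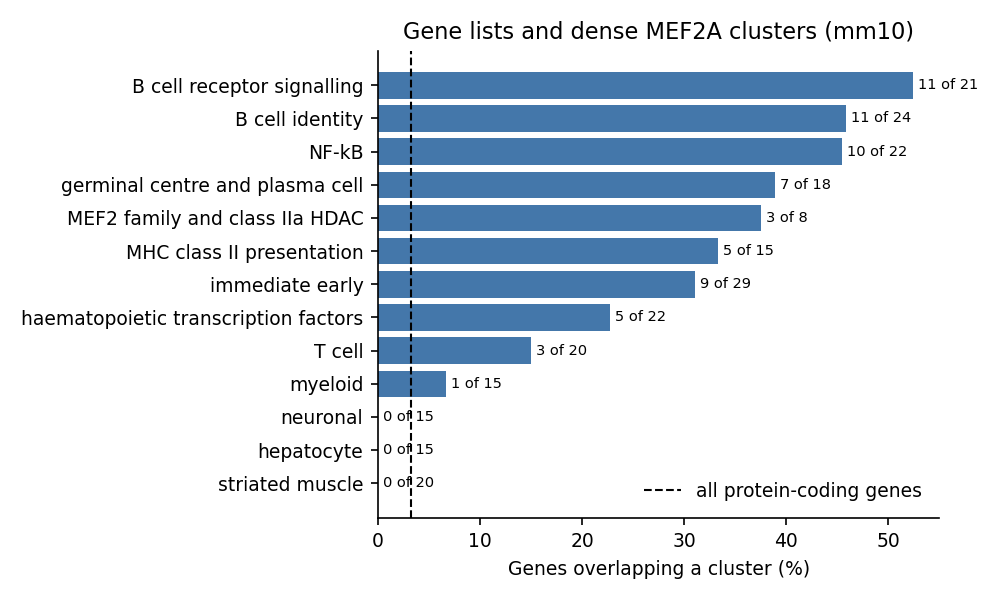
Share of each gene list that overlaps a cluster (x axis, %), with counts beside the bars and the 3.23% of all protein-coding genes as a dashed line. By overlap, B cell receptor signalling genes stand highest at 11 of 21. The striated muscle, neuronal and hepatocyte lists stand at 0, which in lists this short cannot be told apart from the dashed line.

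RefSeq microRNA hairpins lay inside clusters in 30 of 1005 cases, a share of 2.99% that is near the share of protein-coding genes. They fell in 27 clusters. The mature forms of the better known ones follow, from the RefSeq table for GRCm38.p6, with the seed (bases 2 to 8) in capitals. They were picked by hand from the 30, to show which regulators the clusters hold.
mmu-miR-21a-5p: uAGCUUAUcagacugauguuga
mmu-miR-22-3p: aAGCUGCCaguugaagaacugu
mmu-miR-26b-5p: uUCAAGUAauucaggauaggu
mmu-miR-10b-5p: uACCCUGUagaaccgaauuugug
mmu-miR-141-3p: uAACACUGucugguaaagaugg
mmu-miR-200c-3p: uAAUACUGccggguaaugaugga
Mir21a, whose product is abundant in activated lymphocytes and tumours, lay in the cluster of Vmp1 and Tubd1 (11 regions, sum 734; 283 and 522). Mir141 and Mir200c shared the Ptpn6 cluster, and their seeds are not identical. Mir10b lay in a cluster over Hoxd3 and Hoxd4 (8 regions, sum 412), and Mir22 in a cluster of 7 regions over 9434 bp (sum 260). Whether any hairpin was transcribed was not measured.

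Chromosome 11 held 109 of the 555 clusters (19.6%), against 11.2% of all merged regions and 7.35% of protein-coding genes. Of its merged regions, 31.4% were in clusters, against 16.3% over all chromosomes. Chromosome 16 followed with 22.7% of its regions in 35 clusters, and chromosome X had 0 clusters among 327 regions. Of the 20 clusters with the highest sums, 11 were on chromosome 11 and 5 on chromosome 16.

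Intervals of the relaxed lists that touch no optimal peak were also more frequent on chromosome 11, with 9.66% of those of replicate 1 and 9.75% of those of replicate 2. Chromosome 11 makes up 4.59% of the mm9 genome. For chromosome 16 the shares were 5.70% and 5.47%, against 3.70% of the length. For chromosome X they were 1.23% and 1.37%, against 6.28% of the length, and it held 1.14% of all merged regions. The copy number of these chromosomes in CH12.LX was not measured, and its part in the number of clusters was not tested. Without chromosome 11, 2.68% of genes overlapped a cluster, and the counts were 7 of 20 for B cell identity, 11 of 21 for B cell receptor signalling and 9 of 21 for NF-kB.

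**Figure D4:**
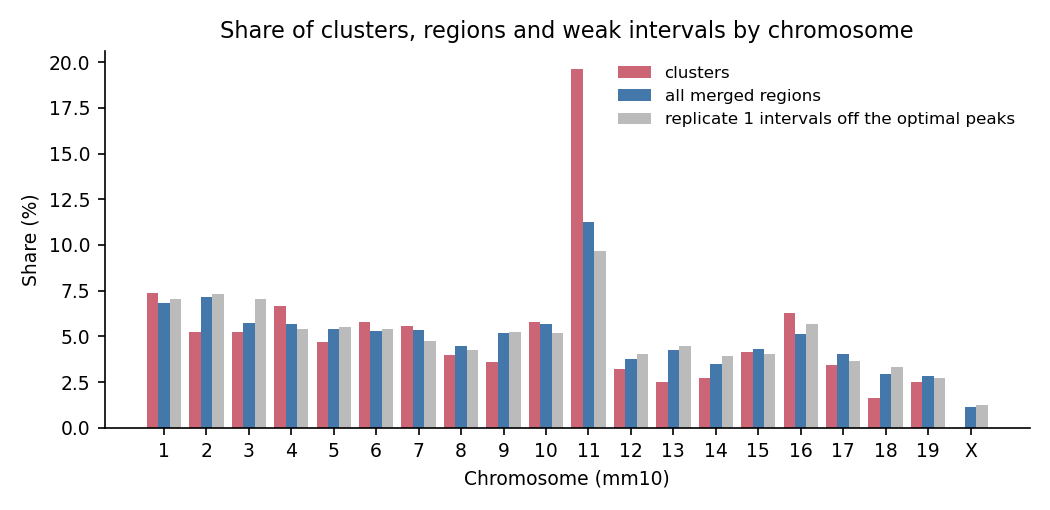
Share of the 555 clusters, of all merged regions and of replicate 1 intervals that touch no optimal peak (y axis, %) on each chromosome (x axis). Chromosome 11 holds 19.6% of clusters, 11.2% of regions and 9.66% of those intervals, and chromosome X no cluster.

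The mm9 list held fewer peaks and 1373 of them (8.15%) lay in its 175 clusters. Only genes whose symbol occurs in both annotations could be joined. Among these, 164 of 183 genes overlapped by mm9 clusters (89.6%) also overlapped an mm10 cluster, and 26.3% of 624 genes the other way. The lists come from the same libraries. The MEF2 consensus was present within 50 bp of the summit in 6.41% of cluster peaks (Wilson 95% interval 5.23 to 7.83), in 7.13% of all mm9 peaks and in 7.73% of those in chains of 1 region. Of the clusters, 73 of 175 held it in at least 1 peak and 13 in at least 2. Each cluster has 6 or more regions by choice, so these counts depend on peak number and were set beside no background.

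Within clusters the element went with signal. It was present in 16% of the strongest peaks (11.3 to 22.2), in 11.4% of the next, in 7.43% of the third and in 3.18% of all weaker ones (2.20 to 4.59). The share was lower in cluster peaks than in lone peaks in each of 5 bins of like signal. In the weakest bin the shares were 2.36% and 4.02%, and in the strongest 13.6% and 15.7%, with overlapping intervals in both. The gap was widest, relative to its intervals, in the next weakest bin, at 1.41% (0.48 to 4.06) and 5.03% (4.09 to 6.18).

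**Figure D5:**
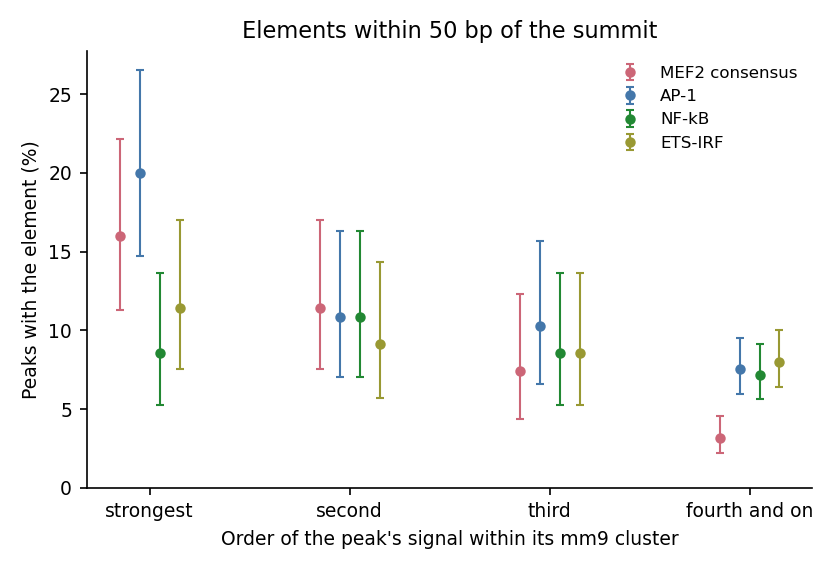
Share of mm9 cluster peaks with each element within 50 bp of the summit (y axis, %) by the order of the peak's signal in its cluster (x axis), with Wilson 95% intervals. The MEF2 consensus falls from 16% to 3.18% from the strongest peaks to those after the third, and NF-kB lies between 7.19% and 10.9%.

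Other elements were searched on both strands in the same windows, where matches to different elements may overlap. AP-1 (TGACTCA or TGAGTCA) was in 20% of the strongest cluster peaks and 7.55% of the weaker ones, and in 9.91% of cluster peaks against 10.7% of all. The NF-kB consensus was in 8.01% against 7.0%, the ETS-IRF composite (GAANNGAAA) in 8.67% against 8.70%, and the octamer (ATGCAAAT) in 3.50% against 3.12%. For RUNX (TGTGGTT) the shares were 5.75% and 5.99%, for PU.1 (GAGGAAGT) 3.79% and 3.24%, for EBF1 (CCCNNGGGA) 4.66% and 4.50%, for E2A (CAGGTG) 11% and 10.1%, and for CTCF (CNAGGGGGC) 0.95% and 1.22%. Over all peaks, the background share lay inside the Wilson interval of the cluster share for each of these elements. Among peaks over 2.5 kb from a TSS it did not for AP-1, which was in 10.5% of cluster peaks (8.85 to 12.46) and 13% of all such peaks. By rank within the cluster, E2A was in 5.71% of the strongest peaks (3.13 to 10.2). It was in 14.9% of the next, 12% of the third and 11.1% of those after the third (9.14 to 13.4). EBF1 was in 2.86% of the strongest (1.23 to 6.51) and 4.72% of those after the third (3.48 to 6.36). For both elements the intervals of the strongest and the weaker peaks overlapped, so no direction was read from them. In lone peaks AP-1 also went with signal, from 7.86% in the weakest bin to 15.4% in the strongest. A cluster held a median of 4 of the 10 elements, from 0 to 8, which also depends on how many peaks it has.

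The MEF2 consensus was also searched in promoters. In the RefSeq promoter table for GRCm38.p6, 1047 of 32851 promoters held it (3.19%), against 1.84% of promoters with a peak summit and 8 of 308 (2.60%, Wilson 95% interval 1.32 to 5.04) with the summit of a cluster peak. The interval of the last share holds both of the others. The 4 of these with the strongest peaks follow on the strand of the gene, with the element in capitals, since here the factor's element, a peak and a TSS coincide.
Hdac5, chr11:102230163-102230212, minus strand: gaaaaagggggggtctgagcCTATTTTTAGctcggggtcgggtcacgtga
Per1, chr11:69100117-69100166, plus strand: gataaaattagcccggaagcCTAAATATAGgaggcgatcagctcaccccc
Tnfrsf13b, chr11:61126718-61126767, plus strand: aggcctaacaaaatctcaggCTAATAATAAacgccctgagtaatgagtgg
Atf3, chr1:191183326-191183375, minus strand: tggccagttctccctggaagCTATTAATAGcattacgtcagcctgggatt
The Hdac5 peak had a signal of 325 and the Per1 peak 283. Per1 encodes a repressor of the circadian clock, and its cluster of 16 regions had a sum of 970 (420 and 650 in the replicates). The Tnfrsf13b and Atf3 peaks had signals of 244 and 148. A match describes the letters and does not show that the factor was bound at them.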

How the data were processed

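MEF2A ChIP-seq of 2 biological replicates of CH12.LX cells was used as peak lists. Per the file headers, the authors called peaks with a control on each replicate and on both pooled, and derived the optimal and conservative sets by IDR (irreproducible discovery rate). The peak caller was not given in the sources used here, nor was the aligner. The signal of each peak and its summit offset were used as deposited by the authors, and signal was compared only within a list. Read depth is unknown, which limits the precision that can be stated. Clusters, genes and motifs were computed with Python 3.11.15, numpy 2.4.6, pandas 2.3.3 and scipy 1.17.1, and the chaining and motif search were tested on simulated data. Coordinates are 1-based. Genes, promoters and microRNAs on mm10 came from RefSeq GRCm38.p6. TSSs were found for 21482 protein-coding genes (98.1%): 17491 from the promoter table, and 3991 by strand from GENCODE vM1. mm10 sequence was not used here beyond the promoter and microRNA tables, so motif shares come from the mm9 list, with its own genome and annotation. No coordinates were converted. Shares have Wilson 95% intervals, for counting error only.

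The clusters and gene lists were chosen with earlier results of these data known. Clusters were named by rule: the 10 with the most regions, the 10 with the highest sums, the 5 longest, the 3 with the highest mean signal and the 5 with the lowest sums, with up to 4 overlapping genes each and up to 6 genes per list by cluster sum. Others, such as the clusters near Mef2a, Myc and Csf2, the multi-cluster genes and some list genes, were named after their values were seen.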

Additional observations from a re-analysis of the deposited data

How the results depend on the processing

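The number of clusters, 555, depended on the chaining. With gaps of at most 5 kb it was 185 and of at most 20 kb 853. With 5 or more regions it was 888 and with 8 or more 269. It was 167 from the stronger 50% of peaks, 340 from peaks over 2.5 kb from a TSS, 300 when intervals at most 1 kb apart were merged (chosen after seeing the data) and 175 on the mm9 list. A cut where the ranked curve of chain sums reaches a slope of 1 kept 1232 chains, 515 of them clusters. The other 7 settings gave counts within 1.5 times of 555.

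The share of merged regions in clusters, 16.3%, was 4.59%, 12.54%, 20.2% and 27% with gaps of at most 5, 10, 15 and 20 kb. It was 22.1% and 9.93% with 5 and 8 or more regions, 14.9% for the conservative set and 8.01% for the stronger peaks. It was 13.9% away from TSSs, 15.4% and 9.25% when merging at most 200 bp and 1 kb apart, and 14.4% without chromosome 11, the last also chosen after seeing the data. From the list of 1 replicate alone, cut to the size of the optimal set, there were 639 to 669 clusters with 17.5% to 19.1% of regions, and they overlapped 440 to 456 of the 555.

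The share of cluster peaks near a TSS was 21.1% within 2.5 kb, against 30% of all optimal peaks. The MEF2 consensus was in 8.59% of mm9 cluster peaks within 100 bp and in 9.69% anywhere in the interval. Over all mm9 peaks these shares were 8.89% and 10.3%. Reading AP-1 in peaks over 2.5 kb from a TSS was chosen after seeing the data. The cause of these changes was not tested, beyond what each setting changes by its construction. No paired analysis was possible because there is only 1 group.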
